A study of Homo sapiens with 6 samples.

Results

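Smooth muscle contractile genes were followed in U2OS, an established human osteosarcoma cell line. Cells had been given either a miR-542-3p mimic, a synthetic duplex that stands in for the mature microRNA, or a negative control mimic, and RNA of 3 samples per group was put on arrays at 48 h. The set held 10 genes chosen by symbol, ACTA2, TAGLN, TAGLN2, CNN1, CNN2, CNN3, MYLK, MYL9, TPM1 and CALD1, and all 21 probes that the array annotation gives to them, out of 47323 probes on the Illumina bead array. The genes were picked with the values of these same arrays in view, so their differences between the groups are given below as a description, with no test. All 21 probes passed the filter for detected signal, as did 18113 probes over the whole array. The replicates are numbered in the labels, but whether they came from separate cultures is not stated, so p-values given for other genes measure the spread between these arrays, which may be technical. All values come from 1 cell line, and no mimic dose was given.

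In smooth muscle, filaments of actin slide along filaments of myosin II. Contraction starts when myosin light chain kinase phosphorylates the regulatory light chain of myosin, and myosin phosphatase reverses it. Tropomyosin, caldesmon and calponin sit on the actin filament and restrain or tune the interaction, and transgelin bundles actin. Many of these genes carry a CArG box in their control regions, the motif bound by serum response factor (SRF), and most have non-muscle forms or relatives that other adherent cells use in stress fibres.

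Most defining markers of smooth muscle were not detected in these cells. Of 8 smooth muscle markers, 7 were detected on no array (MYH11, LMOD1, MYOCD, DES, KCNMB1, SYNPO2 and ACTG2), while SMTN was detected on all 6. The summed intensity of these 8 probes was 1588 to 1639 on mimic arrays, against 1504 to 1582 on control arrays. The 7 undetected probes add background to this sum. SMTN alone averaged 766 on mimic arrays and 660 on control arrays, a log2 difference of 0.29 (limma adjusted p = 0.128). For 8 markers of skeletal or cardiac muscle, 5 of them detected on no array and none on all 6, it was 1063 to 1075 on mimic arrays, against 1013 to 1033 on control arrays. The part of these small shifts in the results below was not tested. Of 7 osteoblast markers measured by a probe, RUNX2, ALPL, SPP1 and COL1A1 were detected on all arrays. The count was 5 of 8 for fibroblast markers, 0 of 6 for endothelial markers and 1 of 5 for leukocyte markers. Median intensity ranged from 132 to 151 on mimic arrays and from 141 to 149 on control arrays. The correlation between arrays over all probes was 0.985 to 0.989 within a group and 0.972 to 0.978 across groups.

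The contractile genes split into 3 sets. ACTA2 and MYLK were higher with the mimic, TAGLN, CNN1 and TAGLN2 were lower, and CNN2, CNN3, MYL9, TPM1 and CALD1 differed little. Background correction enlarged the difference of dim probes: without it the log2 difference was 1.99 for ACTA2, 1.30 for MYLK and -0.79 for CNN1, against 2.90, 2.31 and -1.68 with it. In the fit across all genes, 2 of the 10 were past the threshold (limma, adjusted p under 0.05) as higher and 3 as lower. Of all 10734 genes measured, 26.4% passed, 12.7% as higher and 13.7% as lower. After background correction the same 5 genes also differed at least 2-fold, and 7.64% of all genes met both conditions. Since the genes were chosen from this contrast, nothing is read from their count. Their median log2 difference was -0.08, against 0.02 over all genes, and the median size of the difference, whatever its sign, was 0.84 against 0.29. In bulk RNA such a difference can come from the number of cells expressing a gene or from the amount of RNA in each cell. These cannot be told apart.

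**Figure D1:**
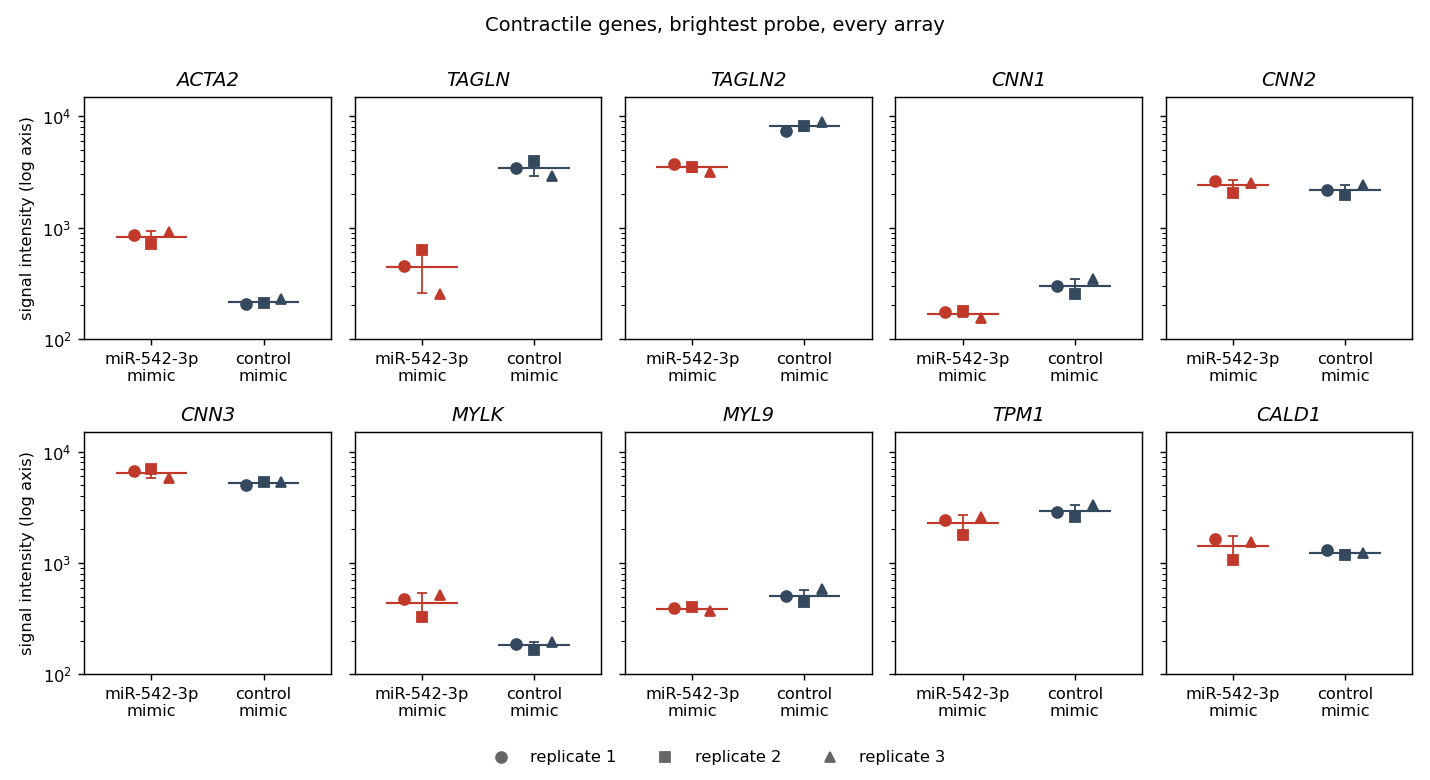
Signal intensity (log axis, arbitrary units) of the brightest probe of each of the 10 contractile genes on every array, miR-542-3p mimic at left and control mimic at right in each panel. Symbols mark the replicate number, the horizontal line is the mean and the bar the SD (n = 3 per group). The groups stand far apart for ACTA2, TAGLN, TAGLN2, CNN1 and MYLK and lie close or overlap for the others.

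ACTA2 encodes smooth muscle alpha-actin, an actin of the contractile thin filament that also marks myofibroblasts. Its probe, ILMN_1671703, read 861, 717 and 917 intensity units on the mimic arrays, against 205, 211 and 228 on the control arrays. The lowest mimic array was more than 3 times as bright as the highest control array, and the probe was detected on all 6 arrays. On the normalised log2 scale the level was 9.50 ± 0.20 with the mimic and 6.60 ± 0.14 with the control (SD, n = 3 each), a difference of 2.90 ± 0.15 (SE), or 7.47-fold. Only 2 of all measured genes had a larger positive difference. With no background correction the difference was 1.99, and with the authors' own log2 values it was 1.97.

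Other actins were not detected or did not pass the test. ACTG2, ACTA1 and ACTC1, the actins of enteric smooth, skeletal and cardiac muscle, were detected on no array. The cytoplasmic actins ACTB and ACTG1 differed by -0.05 ± 0.11 and -0.20 ± 0.13 (SE) on the log2 scale (limma adjusted p = 0.775 and 0.308).

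FAS, the death receptor gene, lies head to head with the upstream end of ACTA2 and was detected on the mimic arrays alone. In RefSeq's promoter windows for GRCh38.p14, the more upstream of the 2 windows of ACTA2, chr10:88991288-88991587 on the minus strand, shares 193 bases with a window of FAS, chr10:88991181-88991480 on the plus strand. The FAS probe read 198, 199 and 226 on the mimic arrays, against 142, 117 and 138 on the control arrays, where it was not detected on any array. All mimic arrays were above all control arrays. The log2 difference was 1.67 after background correction and 0.68 without it. FAS passed the filter for detected signal only through the mimic arrays, so no test is given. From which of its 2 windows the ACTA2 RNA started was not measured.

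MYLK encodes myosin light chain kinase. Its brighter probe, ILMN_1691476, read 472, 327 and 519 on the mimic arrays, against 187, 165 and 194 on the control arrays. All mimic arrays were above all control arrays, with replicate 2 the lowest of the mimic arrays. The level was 8.33 ± 0.45 with the mimic and 6.02 ± 0.21 with the control on the log2 scale (SD, n = 3 each), a difference of 2.31 ± 0.23 (SE), or 4.96-fold. The dimmer probe, ILMN_2364768, read 206, 152 and 185 on the mimic arrays, against 144, 138 and 144 on the control arrays. It was detected on 3 of 3 mimic arrays and on none of the 3 control arrays, so the size of its difference is poorly measured. Both probes sat near background in control cells, and their log2 differences were 2.31 and 0.999 after background correction but 1.30 and 0.37 without it.

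The annotation gives the brighter MYLK probe to one of the short MYLK transcripts, which come from an internal start and encode telokin, a protein with the carboxy-terminal domain of the kinase and no kinase activity. The dimmer probe is annotated to another transcript. Whether either probe reads a single transcript is not known.

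TAGLN encodes transgelin, or SM22-alpha, an actin-bundling protein used as an early marker of smooth muscle. Its brightest probe, ILMN_1778668, read 450.1, 629.6 and 256 on the mimic arrays, against 3411, 3970.1 and 2922 on the control arrays. The groups stood well apart, and the mimic arrays differed among themselves more than the control arrays did. On the log2 scale the level was 8.21 ± 0.94 with the mimic and 11.66 ± 0.27 with the control (SD, n = 3 each), a difference of -3.45 ± 0.41 (SE), or 10.9-fold. No other measured gene had a more negative difference. Without mimic replicate 3, the lowest array, the difference was -2.95, and without mimic replicate 2, the highest of the mimic arrays, it was -3.87.

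A second TAGLN probe, ILMN_2400935, read 166, 201 and 139 on the mimic arrays, against 1058, 1086 and 792 on the control arrays. It was detected on 2 of 3 mimic arrays, and its log2 difference was -3.99 ± 0.38 (SE), or -2.52 with no background correction. The same mimic array was highest and the same was lowest on both probes. The third probe, ILMN_1706783, is annotated to another RefSeq transcript of the gene. It read 147, 135 and 161 on the mimic arrays, against 164.5, 152 and 171 on the control arrays, was detected on 1 mimic and 2 control arrays, and differed by -0.31 ± 0.17. The groups overlapped, and at this brightness the probe sat close to background on all arrays.

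TAGLN2, the transgelin of non-muscle cells, was lower on both of its probes. The brighter one, ILMN_2090105, read 3747, 3489.8 and 3172 on the mimic arrays, against 7437, 8179.5 and 8889 on the control arrays. The other, ILMN_1691892, read 867, 1088 and 728 on the mimic arrays, against 1874.5, 2015 and 1969.7 on the control arrays. The groups did not overlap on either probe. The log2 differences were -1.24 ± 0.13 and -1.21 ± 0.18 (SE), or 2.36-fold and 2.32-fold, and they changed little without background correction (-1.21 and -1.10).

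The 3 calponins did not move together. CNN1, the basic calponin of differentiated smooth muscle, had 1 probe, which read 174, 178.5 and 155 on the mimic arrays, against 299.6, 256 and 345 on the control arrays. All mimic arrays were below all control arrays, and 2 of the 3 mimic arrays were above the detection threshold. Its level was 5.80 ± 0.44 with the mimic and 7.48 ± 0.25 with the control on the log2 scale (SD, n = 3 each), a difference of -1.68 ± 0.23 (SE), or 3.20-fold. The size depended on the background step, with -1.23 at an offset of 50 and -0.79 with no background correction.

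CNN2, the calponin found in many cell types, read 2615, 2047 and 2532 on the mimic arrays, against 2198, 1958 and 2423 on the control arrays. The groups overlapped, and its log2 difference was 0.19 ± 0.14 (SE). A dimmer CNN2 probe read 299.7, 211 and 241 with the mimic, against 301.5, 213 and 246 with the control, and differed by 0.07 ± 0.24. CNN3, the acidic calponin of non-muscle cells, read 6649, 7017 and 5759 on the mimic arrays, against 5063, 5289 and 5306 on the control arrays. The 3 mimic arrays lay above the 3 control arrays, with a log2 difference of 0.34 ± 0.13.

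MYL9 encodes the regulatory light chain that MYLK phosphorylates. Its brighter probe read 396, 405.5 and 368 on the mimic arrays, against 501, 442 and 581 on the control arrays. Its other probe read 330.3, 274 and 302 on the mimic arrays, against 426, 357 and 457 on the control arrays. Neither probe showed overlap between the groups. The log2 differences were small, -0.45 ± 0.14 and -0.60 ± 0.14 (SE). With the brightest probe standing for the gene MYL9 did not pass the threshold, while the dimmer probe did when every probe was fitted as a row of its own. In that fit 9 of the 21 probes passed, and so did 23.6% of all 18113. The 9 include the dimmer MYLK probe, which was kept only through the mimic arrays, and nothing is read from this count.

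TPM1 encodes a tropomyosin that is spliced differently in smooth muscle, striated muscle and other cells, and its 4 probes carry 3 different transcript annotations. The brightest, ILMN_2360710, read 2438, 1784 and 2611 on the mimic arrays, against 2891, 2609 and 3352 on the control arrays, and the groups just overlapped. A probe of like brightness, ILMN_1716687, read 2307, 1480.4 and 2235.5 on the mimic arrays, against 2453.5, 2468 and 2856 on the control arrays. The log2 differences were -0.36 ± 0.18 and -0.37 ± 0.19 (SE). Mimic replicate 2 set much of this size. The difference of the brightest probe was -0.19 without it and -0.50 without mimic replicate 3. The remaining TPM1 probes, both annotated to 1 further transcript, were near background, at 149 to 188 units on the mimic arrays and 132 to 194 on the control arrays. They differed by -0.11 ± 0.35 and 0.03 ± 0.16.

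CALD1 encodes caldesmon, which has a long smooth muscle form and a short non-muscle form. Its 3 probes, annotated to 3 different transcripts, did not move together. ILMN_2324002 read 1658, 1074 and 1546 on the mimic arrays, against 1302, 1169.9 and 1225 on the control arrays. ILMN_1730487 read 1108, 958 and 1072 on the mimic arrays, against 1331.5, 1304 and 1697 on the control arrays. The first overlapped between the groups, with a log2 difference of 0.25 ± 0.18 (SE), and the second lay below the control on every mimic array, with -0.45 ± 0.14. The third and dimmest, ILMN_1717990, differed by 0.18 ± 0.21. With the mean of the 3 probes in place of the brightest, the CALD1 difference was -0.0061. Without mimic replicate 2 the difference of the brightest probe was 0.45, and without mimic replicate 1 or 3 it was 0.15.

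**Figure D2:**
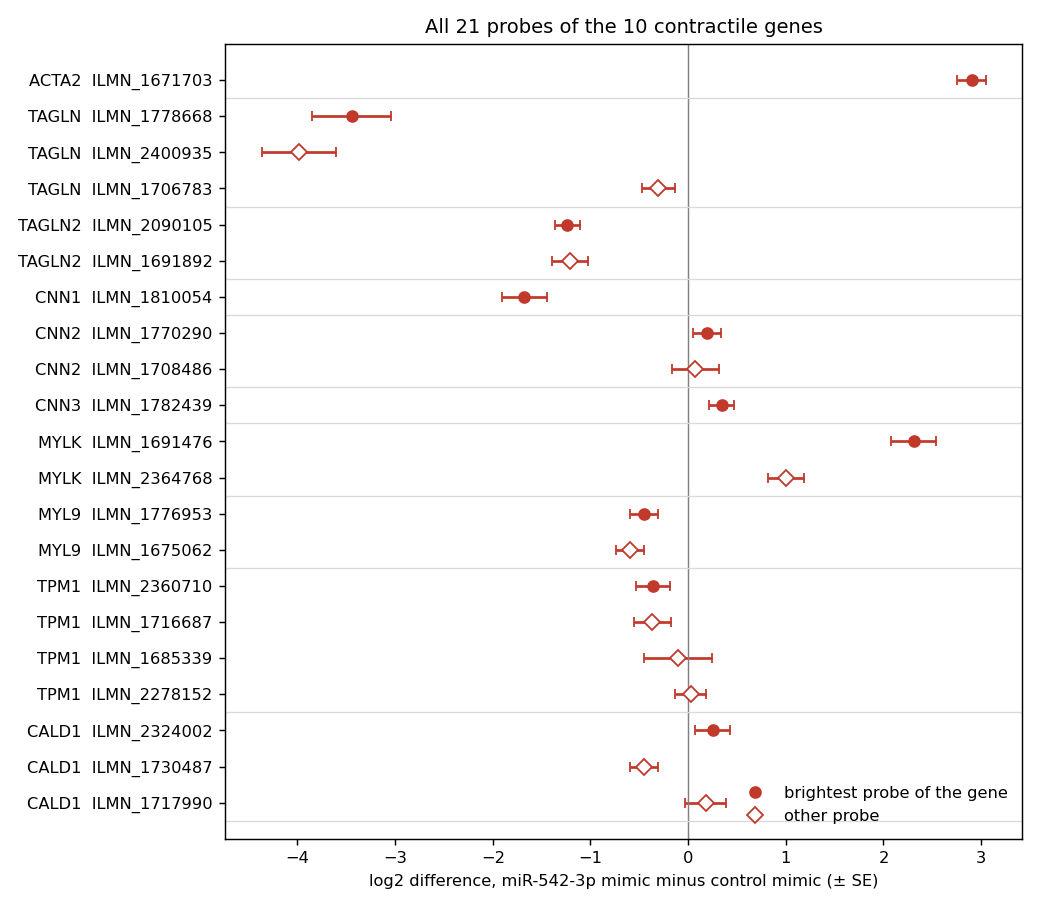
Log2 difference, miR-542-3p mimic minus control mimic, of all 21 probes of the contractile genes after background correction and quantile normalisation. Filled circles are the brightest probe of each gene, open diamonds the others, and bars are limma's standard error from the fit of every detected probe. The probes of TAGLN2 agree at about -1.2, the third TAGLN probe (-0.31) lies far from the other two (-3.45 and -3.99), and CALD1 has probes on both sides of 0.

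Across the 10 brightest probes, the log2 values of the groups did not overlap for 7 genes, 3 with the mimic above (ACTA2, CNN3 and MYLK) and 4 with the mimic below (TAGLN, TAGLN2, CNN1 and MYL9). Among all genes, 45% did not overlap. Over the 21 probes there was no overlap for 13, with the mimic above on 4 and below on 9, and the share over all 18113 probes was 40.8%. The dimmer MYLK probe, kept only through the mimic arrays, is among the 4. Nothing is read from these counts, since the genes were chosen from this contrast. Ranked by size, the 10 differences were spread widely. CNN1 was the 116th and TAGLN2 the 288th most negative, MYLK was the 21st most positive, and 64% of all genes differed by more than CNN2.

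Values of several contractile genes were spread among the mimic arrays. On replicate 2, TAGLN (9.07 on the log2 scale, against 8.35 and 7.21 on mimic replicates 1 and 3) and CNN1 (6.28, against 5.70 and 5.42) were at their highest among the mimic arrays. On that same array ACTA2 (9.30, against 9.50 and 9.71) and the brighter MYLK probe (7.83, against 8.44 and 8.72) were at their lowest. For these 4 genes mimic replicate 2 was the array nearest to the control level, and mimic replicate 3 the farthest. TAGLN, CNN2, MYLK and TPM1 had the same order of replicate numbers on the control arrays as on the mimic arrays. TAGLN was at 11.93 on control replicate 2, 11.66 on replicate 1 and 11.38 on replicate 3. CNN1, TAGLN2 and MYL9 had the opposite order, with CNN1 lowest on control replicate 2. CNN2, TPM1 and CALD1 were also lowest on mimic replicate 2, at 10.97, 10.75 and 9.96. This array had the lowest median intensity of the 6 before normalisation (132), and the part of that in these values was not tested. Leaving out mimic replicate 2 gave 3.00 for ACTA2, 2.55 for MYLK and -1.91 for CNN1.

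**Figure D3:**
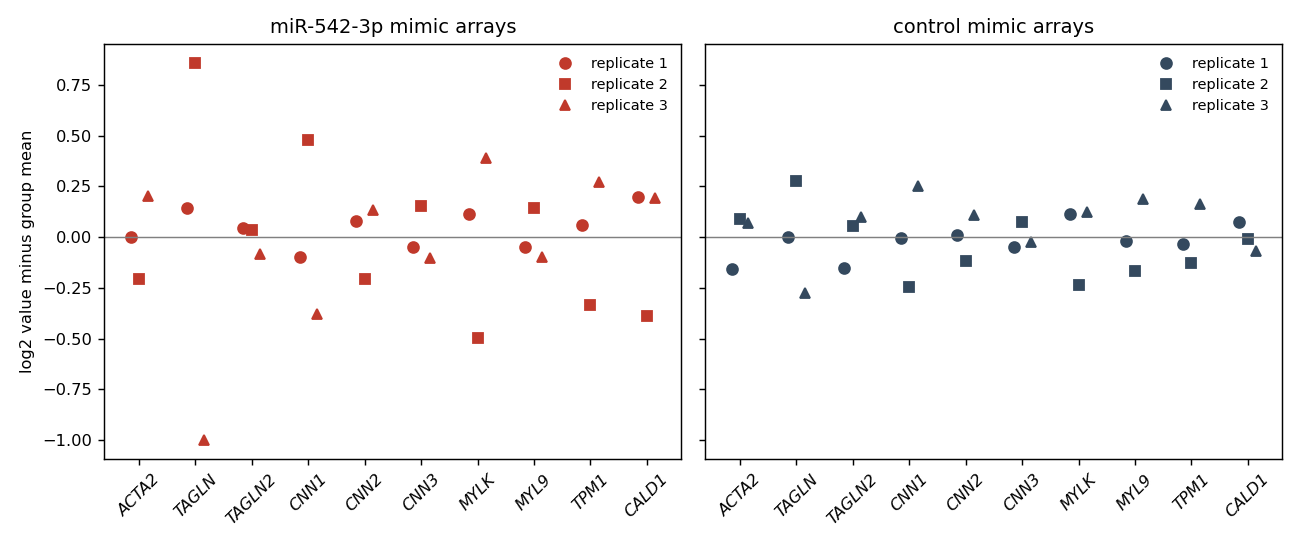
Normalised log2 value of the brightest probe of each contractile gene on each array, minus the mean of its group, for the miR-542-3p mimic arrays (left) and the control mimic arrays (right). Symbols mark the replicate number. Mimic replicate 2 (squares) lies highest for TAGLN and CNN1 and lowest for ACTA2 and MYLK, and the largest spread is that of TAGLN on the mimic arrays (SD 0.94).

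The remaining genes of the contractile pathway came from 6 lists drawn up by function, with earlier results of these data known. For that reason nothing is read from the share of a list, or of all lists together, that passed. Up to 4 genes of a list that passed the test are named by their p-value, and those named as not passing were picked after their values were seen. Of 103 genes listed, 69 were measured, and 13 of these were higher, 12 lower and 44 did not pass (limma, adjusted p under 0.05). That is 36.2% called, against 26.4% of all genes, and the counts of each list below stand beside the 12.7% of all genes that were higher and the 13.7% that were lower. Their median log2 difference was 0.07, against 0.02 over all genes. Leaving out 1 array at a time left 15 to 23 called, with 15 without mimic replicate 1 and 16 without control replicate 1.

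SRF itself, the transcription factor that binds the CArG box, fell. Its probe read 919.6, 858 and 875 on the mimic arrays, against 2202, 2244 and 2221 on the control arrays. The groups were far apart and each was tight. The log2 level was 9.61 ± 0.02 with the mimic and 11.02 ± 0.06 with the control (SD, n = 3 each), a difference of -1.42 ± 0.11 (SE), or 2.67-fold (limma adjusted p = 2.1e-04). Of 11 measured genes in the list of SRF, its cofactors and related regulators, 4 fell, 2 rose and 5 missed the threshold (median 0.08). CSRP1, a LIM protein that works with SRF in smooth muscle, fell by 0.92 ± 0.12 (limma adjusted p = 0.0012). TEAD3, a factor that binds the MCAT motif, and ELK3, an ETS partner of SRF, rose by 0.73 ± 0.16 and 0.57 ± 0.13 (adjusted p = 0.013 and 0.015), or by 0.29 and 0.31 with no background correction. The call of ELK3 ended without mimic replicate 1 or control replicate 1 or 3 (adjusted p 0.0513 to 0.0575). MRTFA, the actin-sensing coactivator of SRF, differed by 0.08 ± 0.17 and did not pass, and MYOCD, its smooth muscle counterpart, was detected on no array.

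Of 17 measured target genes of SRF outside the contractile set, 6 rose, 3 fell and 8 missed the threshold (52.9% called, against 26.4% of all genes, median 0.16). CCN2, a secreted matricellular protein that YAP also controls, rose by 1.25 ± 0.15 (SE; limma adjusted p = 0.0011), from a probe that read 6305, 6322 and 6319.7 on the mimic arrays, against 3026, 2973 and 2373 on the control arrays. A second CCN2 probe also rose (adjusted p = 9.8e-04). PDLIM7, a PDZ-LIM protein of stress fibres, rose by 0.88 ± 0.13 (adjusted p = 0.0024), but its dimmer probes gave 0.17 and 0.31 and did not pass. The immediate-early genes FOS and JUNB rose by 0.69 ± 0.12 and 0.75 ± 0.14 (adjusted p = 0.0053 and 0.0065), or by 0.28 and 0.27 with no background correction. JUNB was detected on 2 of 3 control arrays. The 3 that fell, named after their values were seen, were LPP (-1.17), the focal adhesion protein vinculin, VCL (-0.55), and the actin crosslinker ACTN4 (-0.51).

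PPP1CB, the catalytic subunit of myosin phosphatase, fell. Its probe read 178, 179 and 165 on the mimic arrays, against 332, 362 and 366 on the control arrays, a log2 difference of -1.94 ± 0.18 (SE; limma adjusted p = 3.5e-04), or -0.99 with no background correction. Its targeting subunits differed in direction. PPP1R12A, or MYPT1, rose by 0.68 ± 0.16 (adjusted p = 0.017) and PPP1R12B, or MYPT2, fell by 0.83 ± 0.15 (adjusted p = 0.0066), both dim, with 0.27 and -0.35 without background correction. ROCK1, a kinase that inhibits the phosphatase, rose by 1.02 ± 0.21 (adjusted p = 0.011), was detected on 1 of 3 control arrays, and differed by 0.38 without background correction. ROCK2 (-0.02 ± 0.16), its close relative, did not pass.

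Among the other myosin II chains, 2 of 9 measured fell, 1 rose and 6 missed the threshold (median 0.09). MYL2, a regulatory light chain best known from heart and slow muscle, fell by 0.79 ± 0.17 (SE; limma adjusted p = 0.011). Its dimmer probe gave -0.69 and did not pass. MYL6, the essential light chain of non-muscle and smooth muscle myosin, fell by 0.44 ± 0.12 (adjusted p = 0.029), and MYL5 rose by 0.90 ± 0.26 (adjusted p = 0.038), or 0.35 without background correction. MYL6 lost its call when any 1 of the 6 arrays was left out (adjusted p 0.0551 to 0.084), and MYL5 lost its call without mimic replicate 1 or 3 or control replicate 1 or 2 (adjusted p 0.0959 to 0.106). The non-muscle heavy chains MYH9 (0.09 ± 0.13) and MYH10 (-0.03 ± 0.16) did not pass. None of the 4 other actins and tropomyosins measured passed at an adjusted p under 0.05 in limma, with a median of -0.12. Of 9 other smooth muscle genes measured, CAV1, the scaffold of caveolae, rose by 0.84 ± 0.17 (adjusted p = 0.0095), SLMAP, a sarcolemmal membrane protein, rose by 0.53 ± 0.12 (adjusted p = 0.015), and 7 missed the threshold (median of all 9, 0.10). A second CAV1 probe gave 1.07.

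**Figure D4:**
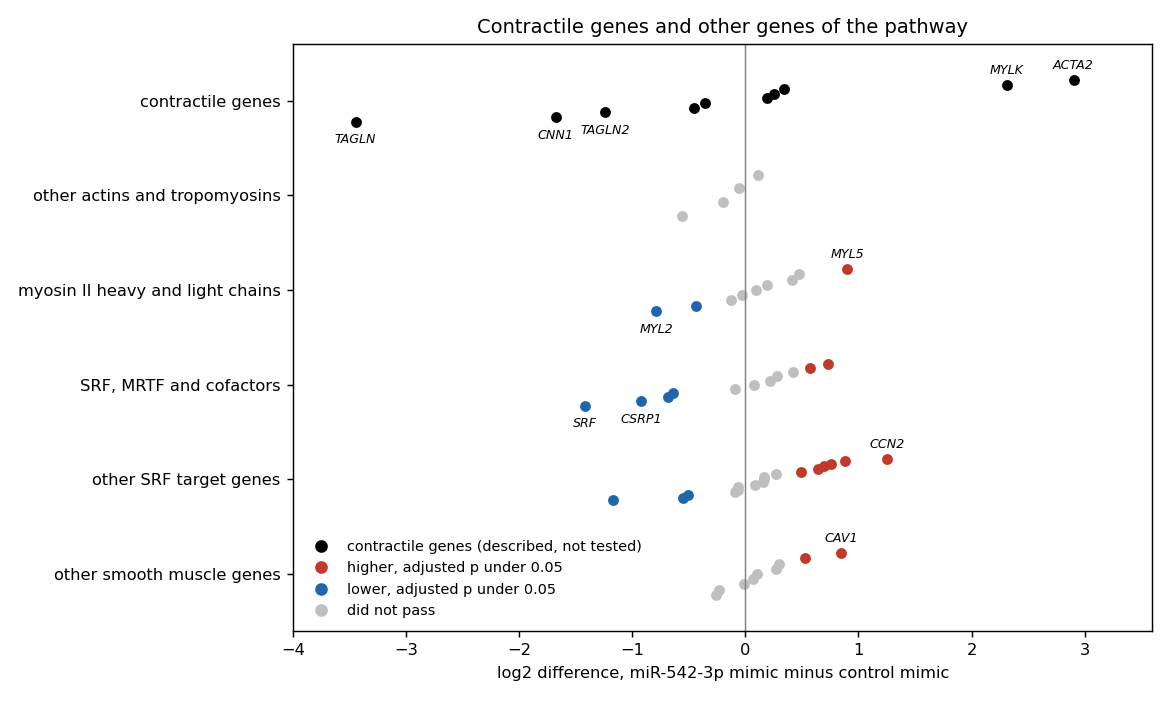
Log2 difference, miR-542-3p mimic minus control mimic, of the 10 contractile genes (black, top row) and of the measured genes in 5 of the 6 lists of the contractile pathway. Each point is a gene, red where higher and blue where lower at a limma adjusted p under 0.05, grey where it did not pass. Each list shown but the actins and tropomyosins has genes past the threshold, and TAGLN (-3.45) and ACTA2 (2.90) lie beyond every gene of these lists.

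Promoter windows of 3 contractile genes that hold a CArG box, or a box with 1 mismatch, are printed because SRF, which binds this box, fell. They run from 250 bases before to 50 bases after a RefSeq start site in GRCh38.p14, are written 5′ to 3′ on the strand of the gene, and have the boxes in capitals. The ACTA2 window is chr10:88952724-88953023 (minus strand), the MYLK window is chr3:123620499-123620798 (minus strand) and the CNN2 window is chr19:1026358-1026657 (plus strand).
ACTA2: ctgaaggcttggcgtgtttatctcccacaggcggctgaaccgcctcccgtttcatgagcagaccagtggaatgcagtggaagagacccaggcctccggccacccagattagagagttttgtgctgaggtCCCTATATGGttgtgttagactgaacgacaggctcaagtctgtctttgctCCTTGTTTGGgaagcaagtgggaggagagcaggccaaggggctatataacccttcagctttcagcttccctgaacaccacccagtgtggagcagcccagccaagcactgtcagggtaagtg
MYLK: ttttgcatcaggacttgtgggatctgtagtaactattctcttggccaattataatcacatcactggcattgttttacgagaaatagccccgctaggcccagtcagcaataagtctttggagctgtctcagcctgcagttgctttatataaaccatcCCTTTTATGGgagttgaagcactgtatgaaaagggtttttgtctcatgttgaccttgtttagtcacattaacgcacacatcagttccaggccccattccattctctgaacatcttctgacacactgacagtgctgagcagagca
CNN2: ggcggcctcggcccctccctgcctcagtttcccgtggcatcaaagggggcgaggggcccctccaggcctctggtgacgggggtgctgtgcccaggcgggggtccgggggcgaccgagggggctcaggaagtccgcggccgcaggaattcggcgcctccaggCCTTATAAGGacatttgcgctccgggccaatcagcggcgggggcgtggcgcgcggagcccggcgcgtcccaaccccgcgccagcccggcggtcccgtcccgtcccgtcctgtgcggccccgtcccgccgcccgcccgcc

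Both strands were searched for the CArG box, which reads as the same class of letters on either strand, first without and then with 1 mismatch. The boxes of the MYLK and CNN2 windows are exact and start at positions -94 and -89 from the start site. Those of ACTA2 each have 1 mismatch and start at -121 and -71. Of 15 windows listed for 8 of the 10 genes, 2 held an exact box and 5 a box with at most 1 mismatch, against 1.29% and 18.9% of all 35116 windows. The windows with a box that are not printed belong to CALD1. Windows of CNN1 and TAGLN2, which were lower with the mimic, held no box, nor did those of CNN3 and TPM1. Of the printed genes, ACTA2 and MYLK were higher and CNN2 differed little. A link between the fall of SRF and these genes was not tested. No window was listed for MYL9 or for TAGLN, the gene with the most negative difference, so whether they hold a box was not examined. The MCAT motif, CATTCC or its reverse complement GGAATG, stood in 5 of the 15 windows, against 14.0% of all windows. In the printed windows it overlapped no box. The MYLK window belongs to an internal start, 10.5 kb from the 3′ end of a gene of 274.3 kb, which is the end that encodes telokin. A match is a string of letters and not a measured binding site.

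Over the 6 arrays, the genes whose centred log2 profile was most like that of ACTA2 were SUGCT, INKA2 and FEZ1, with root mean square differences of 0.14, 0.15 and 0.21 among 10733 other genes. Their log2 differences were 2.81, 2.86 and 2.77. Nearest to TAGLN were BIRC5, which encodes survivin, SCARA3, a scavenger receptor, and PDIA6, a protein disulfide isomerase, at 0.38, 0.42 and 0.51. The distance mostly measures the difference between the groups, so neighbours are genes with a difference of similar size. SCARA3 was detected on 1 of 3 mimic arrays.

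**Figure D5:**
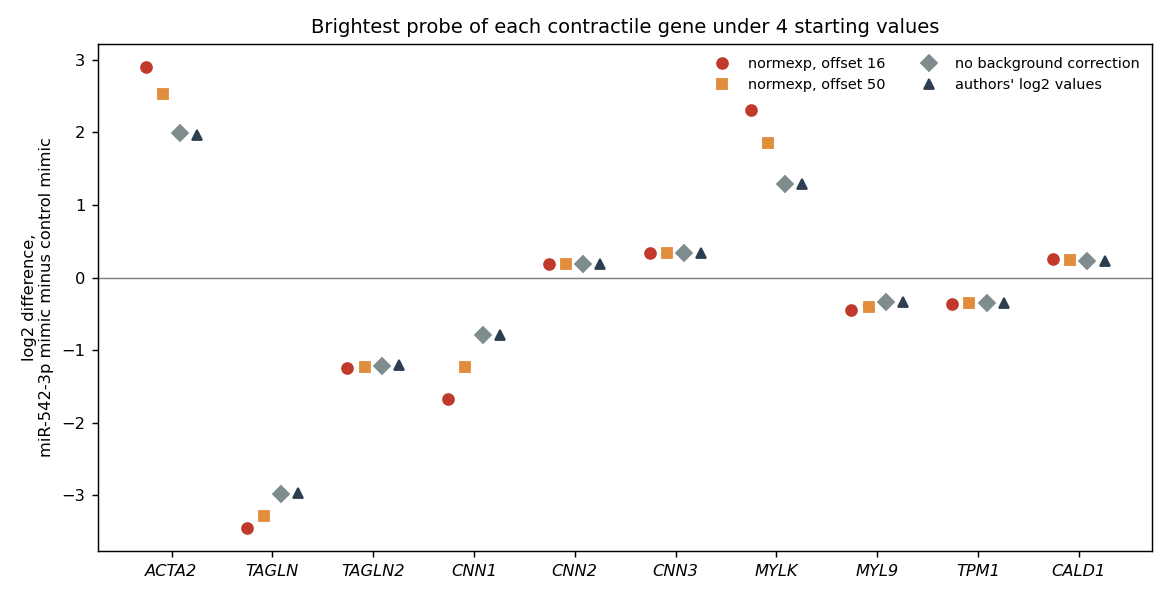
Log2 difference, miR-542-3p mimic minus control mimic, of the brightest probe of each contractile gene under 4 starting values: normexp background correction with an offset of 16 or 50, no background correction, and the authors' deposited log2 values. Each direction is the same under all 4, while CNN1 ranges from -1.68 to -0.79, MYLK from 1.29 to 2.31 and TAGLN2 only from -1.24 to -1.20.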

How the data were processed

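Signal intensity was deposited without normalization for 47323 probes on 6 Illumina bead arrays. Per the file headers, every intensity comes with a detection p-value. The authors' other table gives log2 values that they normalized by a method not stated in the labels, and it served as an alternative. Per the labels' protocols, RNA was column-purified, DNase-treated and turned into biotin-labelled cRNA. Probes were paired with genes by GEO's annotation of the array. It names 1 gene for 30113 probes, several for 8 and none for 17202.

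In R 4.3.3, nec of limma 3.58.1 corrected the intensities (offset 16, background inferred from the detection p-values), followed by quantile normalization and log2. A probe was kept where its detection p was below 0.05 on 3 or more of the 6 arrays. A gene was its brightest probe, giving 14775 rows, 10734 of them genes. Groups were compared with lmFit and eBayes without covariates, and p-values were Benjamini-Hochberg adjusted over all rows. Dimmer probes came from a second fit of 18113 probe rows. The fits were tested on simulated data.

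The contractile genes and the gene lists were chosen with earlier results of these data known. Named genes were all 10 contractile genes, up to 4 called genes of each list by smallest adjusted p, FAS, and the 3 nearest profiles to ACTA2 and TAGLN. No 2 arrays held identical values. The count of 1 pathway list is not reported here. Files name no slide or scan, so batches could not be tested. The number of arrays limits the precision. Promoter sequences and gene symbols are RefSeq's, assembly GRCh38.p14.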

Additional observations from a re-analysis of the deposited data

How the results depend on the processing

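The 10 contractile genes were refitted under 19 alternatives. Their direction was the same in 188 of 189 values, the exception being CALD1 with the mean of probes (-0.0061). Many of these values could not differ. Changing the detection filter, the adjusted p threshold or the variance estimate left every estimate as it was. So did fitting every probe as a row or using the replicate number as a block. Nothing is read from agreement under these settings. CNN1 gave no value when detection on all 6 arrays was required. The number of contractile genes past the threshold was 5 to 7. At an adjusted p under 0.01, 1430 genes changed (606 higher, 824 lower), and 10 pathway genes (5 higher, 5 lower). Leaving out 1 array at a time gave 1859 to 2865 changed genes (811 to 1335 higher, 1001 to 1530 lower) and 15 to 23 pathway genes (9 to 13 higher, 6 to 10 lower), against 2832 and 25 with all arrays. The gene count was lowest without control replicate 1 (1859) or mimic replicate 1 (1871), the pathway count without mimic replicate 1. FAS, which passed the detection filter only through the mimic arrays, gave no value when one of them was left out. With the replicate number as a block, 2658 genes and 20 pathway genes changed (8 of them lower, against 12), 5 contractile genes were past the threshold, and of the 18 other genes named by the rule MYL6 alone lost its call (limma adjusted p = 0.0521). Same-numbered arrays shared little, with deviations correlated at 0.024, 0.081 and 0.103, against -0.129 to 0.046 for arrays of unlike number. Mimic replicates 2 and 3 correlated best with the control array of their own number, and mimic replicate 1 with control replicate 3 (0.039). Whether the numbers mark pairs could not be settled from this, and the main fit did not take them as pairs. Of those 18 genes, 10 kept call and direction under every alternative that gave a value, 8 lost the call at least once, and none changed direction. MYL2, PPP1R12A, ROCK1, SLMAP and TEAD3 lost it only at the stricter threshold of 0.01, while ELK3, MYL5 and MYL6 also lost it at 0.05. FAS is among the 10, and nothing is read from its call, since it passed the filter only through the mimic arrays. Signal near background limits CNN1, MYLK, PPP1CB, ROCK1, FAS and the dim TAGLN and TPM1 probes, whose sizes shrink without background correction. The size of ACTA2, dim on the control arrays, also shrinks, from 2.90 to 1.99. So do those of FOS, JUNB, TEAD3, ELK3, PPP1R12A, PPP1R12B and MYL5.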
